A study of Mus musculus with 6 samples.

Results

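Luminal mammary transcription factors, the hormone receptors and transducer that act beside them, and the luminal mucin Muc1 were followed in TUBO cells, a mouse mammary carcinoma line, on 6 single-colour Illumina bead arrays. The set held every probe whose annotated gene was Gata3, Foxa1, Elf5, Elf3, Ehf, Esr1, Pgr, Prlr, Stat5a or Muc1. These were 18 of 25697 probes on each array, for 9 of 16561 named genes. No probe carried the symbol Prlr in the annotation, so Prlr was not analysed here. TUBO is a single line derived from a carcinoma of a BALB-neuT female, a strain in which a mammary tumour virus promoter drives an oncogenic transgene, and all 6 arrays share this origin. By the design text and growth protocol, the 3 arrays titled TMA hold RNA of adherent cells in mammosphere medium. This is a serum-free DMEM-F12 with bFGF and EGF at 20 ng/ml each, insulin at 5 μg/ml and bovine serum albumin at 0.4%. The 3 arrays titled TDA hold, by the same texts, RNA of adherent monolayers in DMEM with 20% fetal calf serum. No further treatment is given for either group. Only the source names of the samples state the opposite medium for each group. Directions are therefore given as TMA against TDA by title. Which medium goes with which direction rests on the design text and growth protocol, and the conflict with the source names is not resolved. Whether replicates came from separate cultures is not stated, so the p-values measure only the spread between these arrays, which may be technical.

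The arrays all belong to 1 chip, with the TMA arrays in the first 3 positions and the TDA arrays in the last 3, so position and group cannot be told apart. Mean raw signal ranged from 560.2 to 845.4 per probe, with TDA1 the brightest. On the first principal component of the tested probes the TMA arrays lay between -37.3 and -5.74 and the TDA arrays between 20.4 and 28.9, and TDA2 stood apart on the second, at -36.3 against 13.5 and 26.6 for TDA1 and TDA3. The keratins of luminal cells were bright, with Krt8 at 12.74 to 13.60 and Krt18 at 12.66 to 13.50 (log2 signal). Krt19, another simple keratin, lay below the filter on dim probes, as did the basal factor Trp63 and the basal keratins Krt5 and Krt17. The basal keratin Krt14 passed it, at 7.12 to 8.62, as did Vim and Acta2 of the basal and myoepithelial list, at 7.42 to 8.24 and 6.56 to 7.67. Markers of other cells were mostly dim: 1 of 8 for fibroblasts, 2 of 6 for leukocytes, 2 of 6 for endothelium and 1 of 5 for adipocytes passed the filter. The averages of these 4 lists over their genes ranged from 6.67 to 6.95, 7.84 to 8.28, 6.81 to 7.27 and 6.61 to 7.03 (log2 signal), with overlapping groups in each, and the high leukocyte average came from Cd14, at 13.07 to 14.44.

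In the mammary gland, Gata3 establishes and holds the luminal fate. Foxa1 opens chromatin for the oestrogen receptor Esr1, which in turn induces the progesterone receptor Pgr. Elf5, Elf3 and Ehf are epithelial factors of the ETS family. Elf5 drives the alveolar, milk-forming branch downstream of the prolactin receptor, which signals through the kinase Jak2 to Stat5a. Muc1 is a heavily glycosylated transmembrane mucin of the apical surface of luminal cells. In bulk RNA, a change in the share of cells of a type and a change in RNA per cell cannot be told apart.

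RefSeq promoter windows of 250 bases before to 50 after the start site were found for 9 of the 10 genes, all but Ehf (14 windows, GRCm38.p6). Those of Muc1, Elf3 and Stat5a are shown because their leading probes had the largest differences among the members above the filter. Capitals mark a match, on either strand, to the ETS motif AGGAAG. They also mark the TATA box letters TATAAA.
Muc1, chr3:89228806-89229105, plus strand: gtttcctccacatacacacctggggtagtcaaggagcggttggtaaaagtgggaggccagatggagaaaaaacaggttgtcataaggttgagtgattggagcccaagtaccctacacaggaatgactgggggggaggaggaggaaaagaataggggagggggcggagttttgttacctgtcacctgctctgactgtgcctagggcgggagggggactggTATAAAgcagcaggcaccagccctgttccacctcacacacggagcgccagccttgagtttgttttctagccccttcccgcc
Elf3, chr1:135258423-135258722, minus strand: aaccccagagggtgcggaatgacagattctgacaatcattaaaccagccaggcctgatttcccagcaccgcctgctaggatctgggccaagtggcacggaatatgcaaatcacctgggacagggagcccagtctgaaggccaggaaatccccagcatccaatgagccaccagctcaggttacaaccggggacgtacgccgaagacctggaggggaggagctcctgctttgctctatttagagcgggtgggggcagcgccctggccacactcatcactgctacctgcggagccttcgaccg
Stat5a, upstream window, chr11:100859406-100859705, plus strand: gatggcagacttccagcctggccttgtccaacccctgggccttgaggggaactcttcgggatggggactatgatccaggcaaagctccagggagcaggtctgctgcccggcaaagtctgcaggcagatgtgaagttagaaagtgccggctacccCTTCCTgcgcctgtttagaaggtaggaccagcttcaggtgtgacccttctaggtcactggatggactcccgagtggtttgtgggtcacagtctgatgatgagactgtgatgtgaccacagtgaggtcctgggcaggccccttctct
Stat5a, downstream window, chr11:100860234-100860533, plus strand: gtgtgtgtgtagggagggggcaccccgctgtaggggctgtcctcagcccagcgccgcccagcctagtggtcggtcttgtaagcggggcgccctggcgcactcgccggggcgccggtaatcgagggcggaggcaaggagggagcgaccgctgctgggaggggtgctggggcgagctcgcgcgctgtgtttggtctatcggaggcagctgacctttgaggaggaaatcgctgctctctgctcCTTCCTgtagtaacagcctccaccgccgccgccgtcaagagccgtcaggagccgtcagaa
The Muc1 window holds TATAAA on the strand of the gene, with its first base 31 bases before the start site, a letter run found in 13.6% of all 32851 windows on either strand and in 2 of the 14 member windows. The motif was added after the Muc1 sequence had been read. Each Stat5a window holds 1 AGGAAG on the opposite strand, beginning 96 and 10 bases before its start site. AGGAAG is in 6 of the 14 member windows, among them windows of Esr1, Pgr and Prlr, and in 35.4% of all windows. Of the other motifs searched on both strands, the GATA motif AGATAA and the full oestrogen response element were in 0 member windows, against 11.2% and 0.07% of all windows. The FOXA motif TGTTTAC was in a Foxa1 and a Prlr window and in 3.65% of all. The STAT motif TTCNNNGAA was in an Esr1 and a Prlr window and in 8.3% of all, and TGTTCT, letters shared by the progesterone and glucocorticoid receptor elements, in a Prlr window and in 19% of all. The windows shown hold none of these, and a match or its absence is a description of the letters only.

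Muc1 was higher on the TMA arrays, and it was the only member called, where 3.01% of all tested probes were called. Its probe with the highest mean, ILMN_1250138, had a log2 signal of 10.03, 9.78 and 9.40 in TMA1 to TMA3, against 8.40, 7.20 and 8.90 in TDA1 to TDA3; values below keep this order of arrays. The groups did not overlap, and TDA2 lay well below the other TDA arrays. The means were 9.74 ± 0.32 and 8.17 ± 0.87 (SD, n = 3 each), and the probe rose by 1.57 ± 0.36 on the log2 scale (standard error), a 2.97-fold difference (limma adjusted p = 0.0403). Before normalization its intensities were 1201.1, 968.5 and 873.0 in the TMA group and 627.5, 279.5 and 533.0 in the TDA group, which also do not overlap. The value on TDA2 is close to the median raw intensity of that array, 270.6.

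The 3 other Muc1 probes also kept the TMA arrays above the TDA arrays, and none passed the threshold. ILMN_2928489 read 8.87, 9.07 and 9.47 against 8.21, 7.08 and 8.67, a log2 difference of 1.15 (limma adjusted p = 0.0931). ILMN_1231229 read 8.79, 8.41 and 8.88 against 7.86, 7.29 and 8.26, a log2 difference of 0.89 (limma adjusted p = 0.0850). ILMN_1259202 read 8.23, 8.07 and 8.52 against 7.31, 6.64 and 8.02, a log2 difference of 0.95 (limma adjusted p = 0.112). Each of the 4 probes kept the groups apart, TDA2 was the lowest and TDA3 the highest TDA array on each, and the gap between the lowest TMA and the highest TDA array was 0.50, 0.19, 0.15 and 0.05 in the order given. On TDA2 the raw intensities of the 4 probes were 279.5, 270.4, 287.8 and 239.1, near or below the median of that array, 270.6. The probes read 1 gene in the same RNA and are not replicates of each other. Without TDA2 the differences were 1.09, 0.69, 0.63 and 0.61, the first still past the threshold (limma adjusted p = 0.0197). The call of ILMN_1250138 was lost without TMA1, TMA2, TMA3 or TDA1, with differences of 1.43, 1.55, 1.74 and 1.69 and limma adjusted p of 0.0716, 0.165, 0.127 and 0.126, and in the authors' log2 table, with a difference of 1.15 (limma adjusted p = 0.0726). Of all 12848 tested probes, 682, 21, 3 and 8 passed without TMA1, TMA2, TMA3 and TDA1. The call was also lost without background correction, with an offset of 16, with median scaling and with a stricter filter (limma adjusted p = 0.0714, 0.0522, 0.0533 and 0.0517). Without moderation of the variance the adjusted p of ILMN_1250138 was 0.337, and 0 of all tested probes passed.

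**Figure D1:**
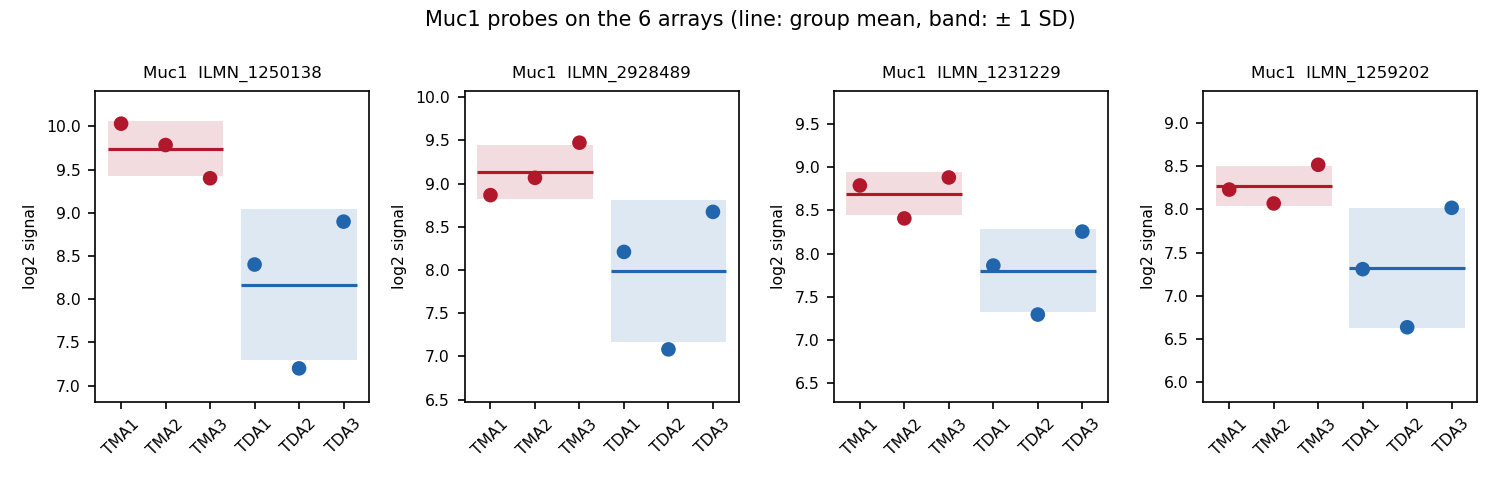
Log2 signal (vertical axis, the same span in each panel) of the 4 Muc1 probes on the 6 arrays, TMA in red and TDA in blue, with the group mean as a line and 1 SD either side as a band (n = 3 each). In every panel the 3 TMA points lie above the 3 TDA points, and TDA2 is the lowest point, at 7.20, 7.08, 7.29 and 6.64 from left to right.

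Across the set, 14 of the 18 probes passed the filter, for 6 genes, and limma called 1 of them, higher on the TMA arrays. Over all 12848 tested probes 3.01% were called, 1.53% higher and 1.49% lower, and 18.5% had an unadjusted p under 0.05. Without a filter the same Muc1 probe was called and no other member, against 1.44% of all probes. The groups were apart without overlap on 7 of the 14 tested member probes, 6 higher and 1 lower, against 23% of all tested probes, or 11.9% higher and 11.1% lower. The 6 were the 4 Muc1 probes and 1 probe each of Elf3 and Stat5a, and the lower one was an Elf5 probe. The median log2 difference was 0.30 over the tested member probes and -0.0040 over all tested probes. TDA2 was the lowest of the 6 arrays on 10 of the 14 tested member probes, among them all probes of Muc1, Elf3 and Stat5a, whereas it was the lowest on 21.7% of all tested probes.

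The lineage factors Gata3 and Foxa1 had 1 probe each, both tested and neither called. Gata3 read 9.67, 10.25 and 9.05 in the TMA group against 9.62, 9.67 and 9.43 in the TDA group. The TMA arrays of Gata3 fell on both sides of the TDA arrays, and the log2 difference was 0.09 with a 95% interval from -0.51 to 0.68 (limma adjusted p = 0.918). Foxa1 read 7.86, 7.64 and 7.06 against 7.82, 7.97 and 8.06. TMA3 was the low array and TMA1 lay within the TDA range, with a log2 difference of -0.43 and an interval from -0.94 to 0.07 (limma adjusted p = 0.358). It was -0.20 without TMA3 and -0.60 without TMA1. The raw intensity of Foxa1 on TMA3, 284.8, was just below the median of that array, 287. The spread was wider among TMA arrays for both, at an SD of 0.60 against 0.12 for Gata3 and 0.41 against 0.12 for Foxa1.

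The ETS factors differed in direction, and none passed the threshold. Elf5, the alveolar regulator, had 3 tested probes, with log2 differences of -0.27, -0.25 and -0.45 and limma adjusted p of 0.674, 0.665 and 0.256. Its brightest probe, ILMN_2736380, read 10.41, 9.70 and 9.56 against 10.49, 9.68 and 10.31, so that TMA1 stood with the TDA arrays and TDA2 with the other TMA arrays. On ILMN_2938440 alone the groups were apart, at 7.75, 7.89 and 7.55 against 8.41, 8.08 and 8.04. With 1 array left out, the difference of ILMN_2736380 ranged from -0.53 without TMA1 to -0.11 without TDA1 or TMA3, and that of ILMN_2669510 from -0.52 without TDA2 to -0.099 without TDA1.

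Elf3, an ETS factor of epithelial differentiation and inflammation, read higher on the TMA arrays on its 3 probes without a call. ILMN_2850233 read 9.16, 9.49 and 9.30 against 8.97, 7.63 and 9.11. The groups were apart by a narrow margin, and TDA2 was far below all other arrays. The log2 difference was 0.75 with an interval from 0.02 to 1.47 (limma adjusted p = 0.252), and it was 0.28 without TDA2. The other probes, ILMN_2621659 and ILMN_2692072, differed by 0.36 and 0.23 (limma adjusted p = 0.407 and 0.614), with TDA3 inside the TMA range on each, and by 0.24 and 0.12 without TDA2. Ehf, a close ETS relative of Elf3, had a single probe below the filter, at 6.97, 7.28 and 6.66 against 6.38, 5.97 and 6.63. Its lowest TMA and highest TDA arrays were 6.66 and 6.63, and in the fit without a filter the log2 difference was 0.65 with an unadjusted p of 0.0156 (limma adjusted p = 0.248). Its mean ranked at the 20.2 percentile of all probes, and the table holds no detection p-values, so whether it lay above background was not tested.

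The probes of the steroid hormone receptors lay below the filter and did not enter the main test. Esr1 had probes at 7.03, 6.91 and 7.02 against 6.75, 6.85 and 6.62 (ILMN_2726412) and at 6.36, 6.53 and 5.95 against 6.27, 7.00 and 6.63 (ILMN_2604666). The probes went in opposite directions, with log2 differences of 0.25 and -0.35 and limma adjusted p of 0.741 and 0.658 in the fit without a filter. Pgr read 7.07, 7.55 and 6.81 against 6.84, 7.28 and 6.40, with overlapping groups and a log2 difference of 0.30 (limma adjusted p = 0.755 without a filter). All 3 probes lay between the 8.1 and 48.6 percentile of mean signal over all probes. Of the 4 probes below the filter, Ehf and 1 of Esr1 had groups that did not overlap, against 9.65% of all probes below the filter.

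Stat5a, the transducer of prolactin signals, had 2 tested probes and no call. ILMN_2976191 read 8.51, 8.75 and 8.63 against 8.05, 7.89 and 8.35. The TMA arrays were close together and all above the TDA arrays, with a log2 difference of 0.53 and an interval from 0.09 to 0.97 (limma adjusted p = 0.180). ILMN_2976188 read 7.41, 7.65 and 7.93 against 7.55, 7.03 and 7.67, with overlapping groups and a log2 difference of 0.25 (limma adjusted p = 0.640), which was 0.054 without TDA2 and 0.11 without TMA3.

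**Figure D2:**
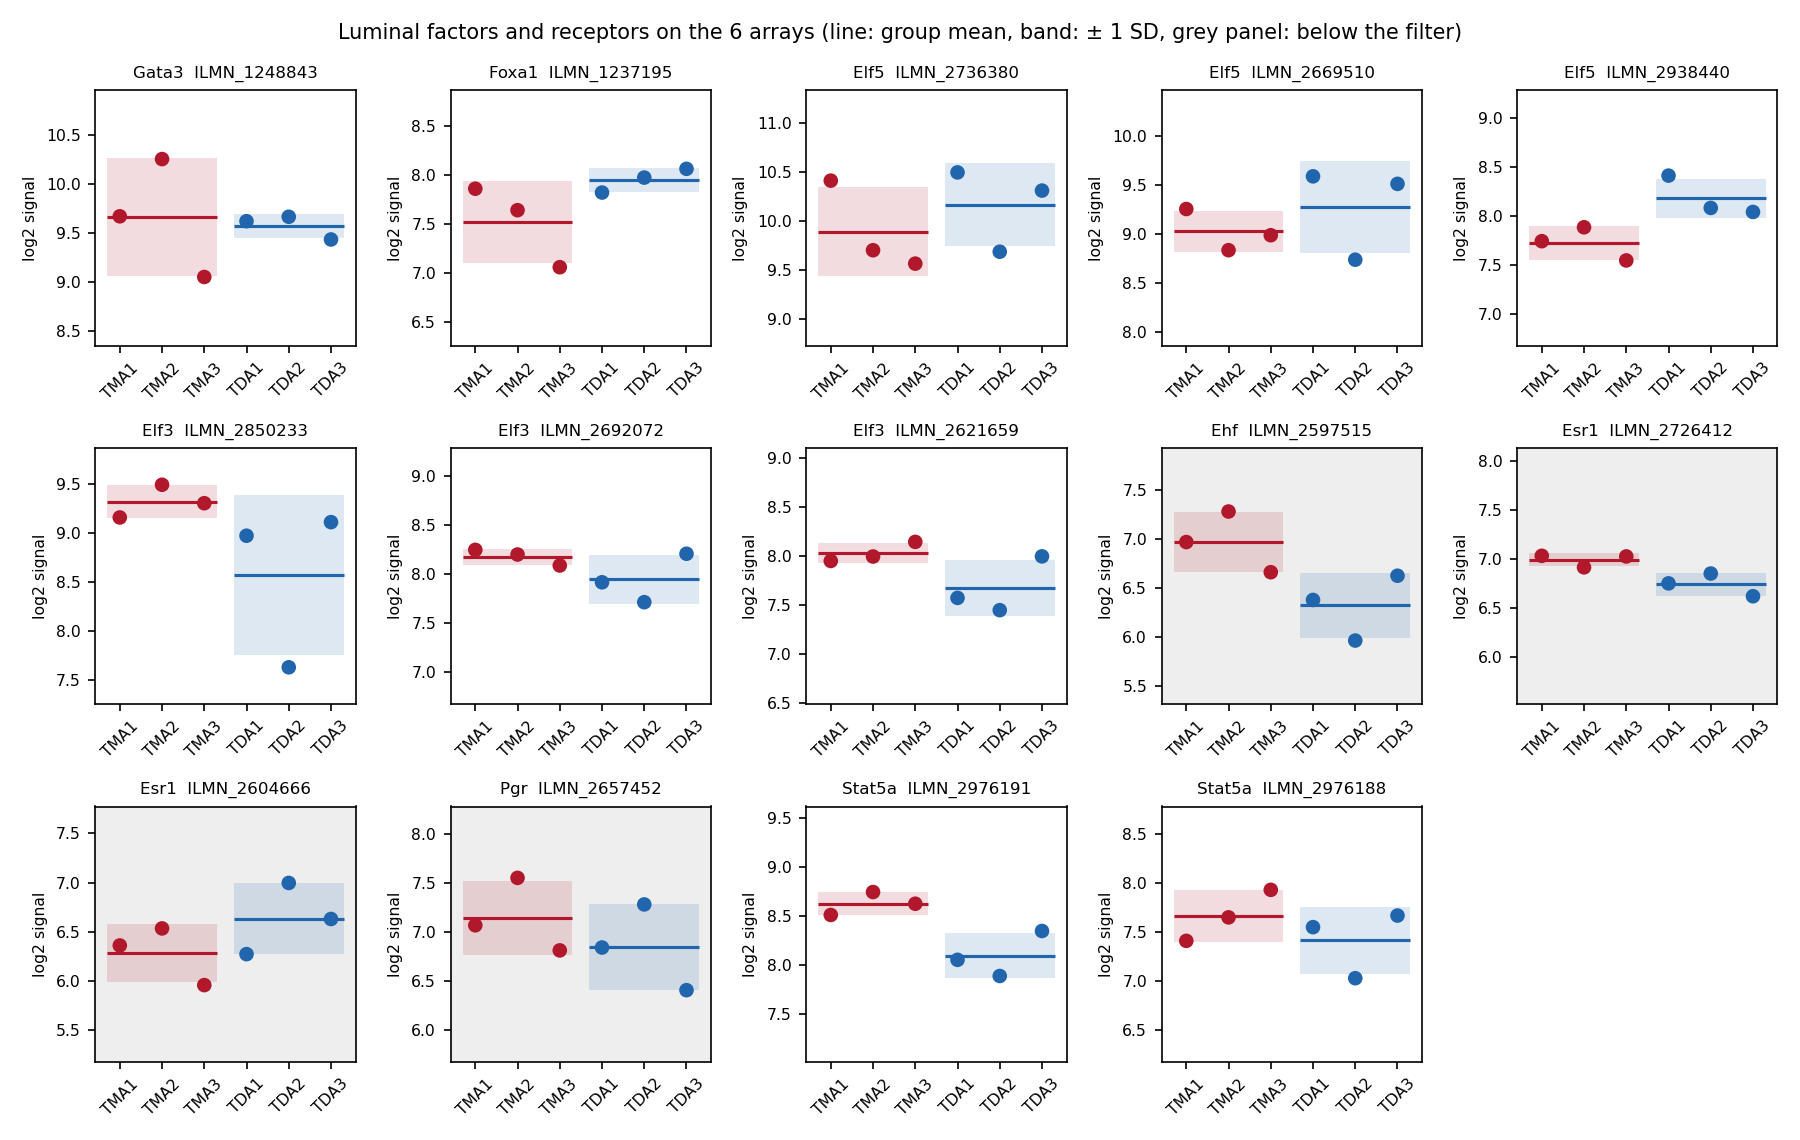
Log2 signal (vertical axis, the same span in each panel) of the 14 probes of Gata3, Foxa1, Elf5, Elf3, Ehf, Esr1, Pgr and Stat5a on the 6 arrays, TMA in red and TDA in blue, with the group mean as a line and 1 SD either side as a band (n = 3 each). Grey panels mark the 4 probes below the filter. The low TDA2 point of Elf3 ILMN_2850233, at 7.63, and the wide TMA spread of Gata3, from 9.05 to 10.25, stand out.

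**Figure D3:**
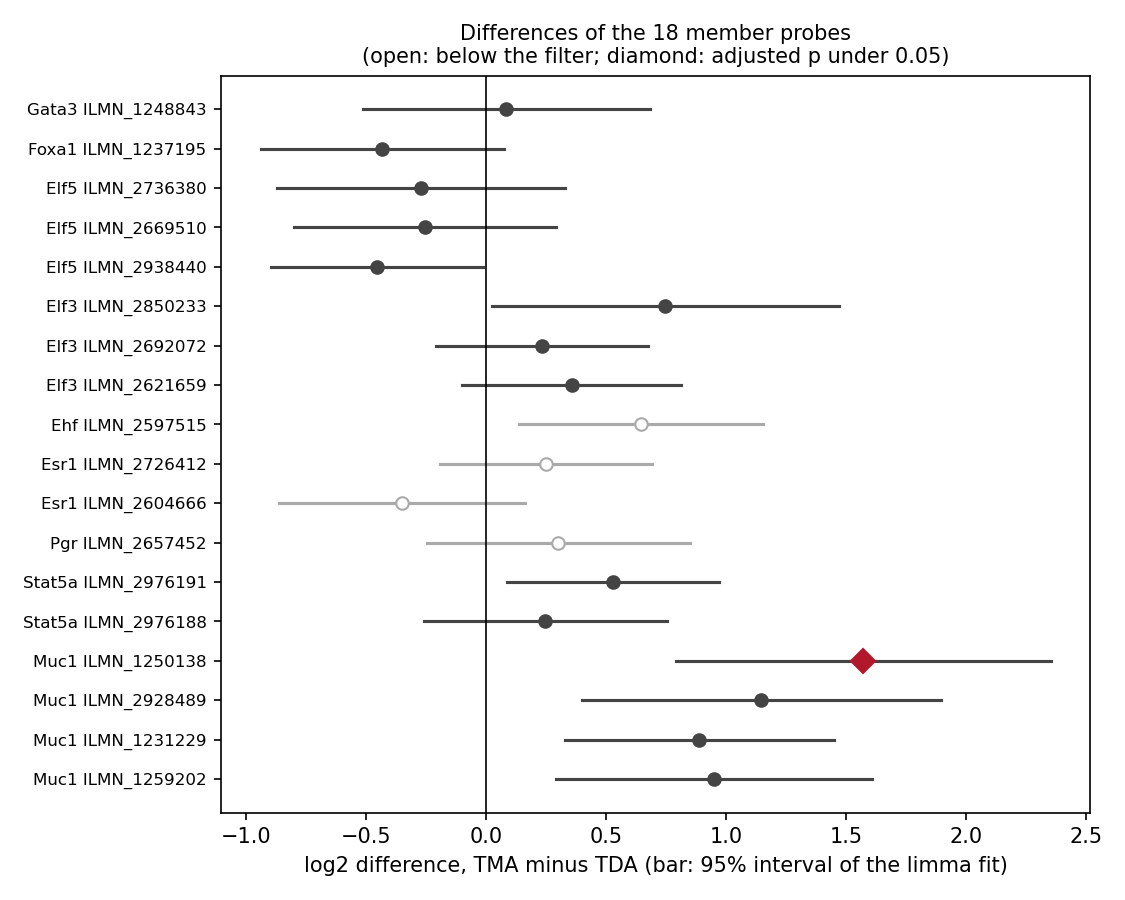
Log2 difference, TMA minus TDA (horizontal axis), of the 18 probes, with the 95% interval of the limma fit as a bar. Filled points were tested, open points lay below the filter and carry the interval of the fit without a filter, and the diamond marks the single call, Muc1 ILMN_1250138 at 1.57. The intervals of the 4 Muc1 probes, of 1 probe each of Elf3, Ehf and Stat5a, and of Elf5 ILMN_2938440 exclude 0.

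The members varied over the 6 arrays in unlike ways, and these arrays share a chip and the difference between groups. Pearson's r with Muc1 ILMN_1250138 was 0.90 to 0.93 for the other Muc1 probes, 0.93 for Ehf, 0.84 to 0.93 for the Elf3 probes and 0.92 and 0.64 for the Stat5a probes. It was 0.13 for Gata3, -0.39 for Foxa1, and 0.12, 0.13 and -0.61 for the Elf5 probes. For probes below the filter other than Ehf, it was 0.47 and -0.61 for Esr1 and 0.036 for Pgr. These are descriptions over 6 arrays, and 200 of 8958 other genes tested had r above 0.9 with that probe. The closest were Fblim1, Pdha1, Ikbip, Slc25a23 and Nat8f1, with r from 0.987 to 0.994 and log2 differences of 0.49, 0.46, 0.75, 0.85 and 0.40, none of which passed the threshold (limma adjusted p from 0.0633 to 0.295).

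Among other luminal transcription factors, Id2 fell, the only 1 of 16 tested members of 21 on the array to be called, with 0 higher and a list median of 0.04. Among all tested probes 3.01% were called. Id2 blocks basic helix-loop-helix factors and is needed in mice for alveolar growth. Its leading probe read 9.20, 8.08 and 8.28 against 9.85, 9.64 and 10.18, a log2 difference of -1.37 ± 0.29 (standard error, limma adjusted p = 0.0278). A second tested Id2 probe differed by -0.13 (limma adjusted p = 0.868), so the probes disagree. The call was lost without TMA2, TMA3, TDA1 or TDA3, with differences of -1.15, -1.25, -1.39 and -1.22 and limma adjusted p of 0.143, 0.165, 0.123 and 0.0872, and without background correction, with median scaling and in the authors' table, with limma adjusted p of 0.0595, 0.0533 and 0.0631. Of all 12848 tested probes, 21, 3, 8 and 112 passed without TMA2, TMA3, TDA1 and TDA3. Without moderation of the variance the adjusted p of Id2 was 0.292, and 0 of all tested probes passed.

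Of 13 tested ETS genes of 19 on the array, limma called 0, against 3.01% of all tested probes, with a list median of -0.01. An unadjusted p under 0.05 was held by 2, both higher, against 18.5% of all tested probes. These were the widely expressed relatives Ets2 and Ets1, with log2 differences of 0.85 and 0.81 (limma adjusted p = 0.105 and 0.235). Ets2 read 11.52, 12.18 and 12.07 against 11.12, 11.50 and 10.62, with TMA1 only just above TDA2.

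In the prolactin pathway, limma called 0 of 13 tested genes of 17 on the array, with a list median of 0.19. An unadjusted p under 0.05 was held by 2, both higher, where 18.5% of all tested probes had one and 3.01% were called. Socs3, a feedback inhibitor of cytokine receptors, read 7.82, 8.45 and 8.60 against 7.23, 7.54 and 7.28, a log2 difference of 0.94 (limma adjusted p = 0.0548). The repressor gene Bcl6 differed by 0.74 (limma adjusted p = 0.124). The kinase gene Jak2 differed by 0.39 on its leading probe and 0.69 on its other tested probe (limma adjusted p = 0.347 and 0.0902). The STAT5 target Cish read 9.97, 9.59 and 9.47 against 9.42, 8.91 and 9.46, and Socs2, also a STAT5 target, 14.47, 12.13 and 13.16 against 14.16, 13.90 and 13.99. The groups were apart for Cish and overlapped for Socs2, with log2 differences of 0.42 and -0.76 of which neither passed (limma adjusted p = 0.366 and 0.386). Jak2, Cish and Socs2 were named after their values were seen.

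Of 6 tested partners of the steroid receptors, of 11 on the array, limma called 0, with 1 at an unadjusted p under 0.05 and a list median of -0.01. The shares over all tested probes were 3.01% called and 18.5% at such a p. Fkbp4, a co-chaperone of steroid receptors, differed by -0.62 and the orphan receptor Esrra by 0.36 (limma adjusted p = 0.251 and 0.457). Of 9 tested targets of the oestrogen and progesterone receptors, of 14 on the array, limma called 0, with 2 at an unadjusted p under 0.05, both lower, and a list median of -0.27, which was -0.84 with a stricter filter, -0.42 without TDA1 and -0.089 with array quality weights. Stc2, a secreted glycoprotein, read 8.29, 8.01 and 8.12 against 8.60, 10.57 and 8.67, so that the groups were apart and TDA2 was far above the other TDA arrays (log2 difference -1.15, limma adjusted p = 0.158). The cyclin gene Ccnd1 differed by -0.54 (limma adjusted p = 0.268) and its other tested probes by -0.20 and -0.35. Greb1 and Tff3, which respond to oestrogen in breast cells, lay below the filter.

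The other mucins did not follow Muc1 into a call. Of 8 on the array, 3 were tested, limma called 0, 0 had an unadjusted p under 0.05 and the list median was 0.10, with Cd164 at 0.20 and Muc20 at 0.10 (limma adjusted p = 0.718 and 0.894). For comparison, 3.01% of all tested probes were called and 18.5% had an unadjusted p under 0.05. Muc4, the other large membrane mucin of mammary epithelium, lay below the filter. Of 11 tested enzymes of mucin-type O-glycosylation, of 18 on the array, limma called 0, with 2 higher and 1 lower at an unadjusted p under 0.05 and a list median of -0.15, which turned to 0.20 with a stricter filter, 0.033 with array quality weights and 0.038 without TMA3. Gcnt1, which branches core O-glycans, read 9.86, 9.89 and 10.32 against 9.25, 9.12 and 9.36, a log2 difference of 0.78 (limma adjusted p = 0.0633), while its other tested probe differed by 0.16 (limma adjusted p = 0.754). Galnt10, which can start such glycans, differed by -0.71 (limma adjusted p = 0.135), while its other tested probe differed by 0.00087.

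Luminal keratin and surface genes gave 0 calls in limma among 9 tested of 10 on the array, with 3 higher at an unadjusted p under 0.05 and a list median of 0.23. Calls made up 3.01% of all tested probes, and 18.5% had an unadjusted p under 0.05. The tight junction gene Cldn4 read 12.16, 14.58 and 13.73 against 11.18, 12.30 and 11.28, a log2 difference of 1.90 (limma adjusted p = 0.0577), and TMA1 lay below TDA2. Cldn3 differed by 0.71 (limma adjusted p = 0.108). Of 10 basal and myoepithelial genes on the array 3 were tested, with 0 called by limma and 0 at an unadjusted p under 0.05. The actin gene Acta2 and the keratin gene Krt14 differed by 0.44 and -0.52 (limma adjusted p = 0.415 and 0.430), and the list median was -0.25.

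**Figure D4:**
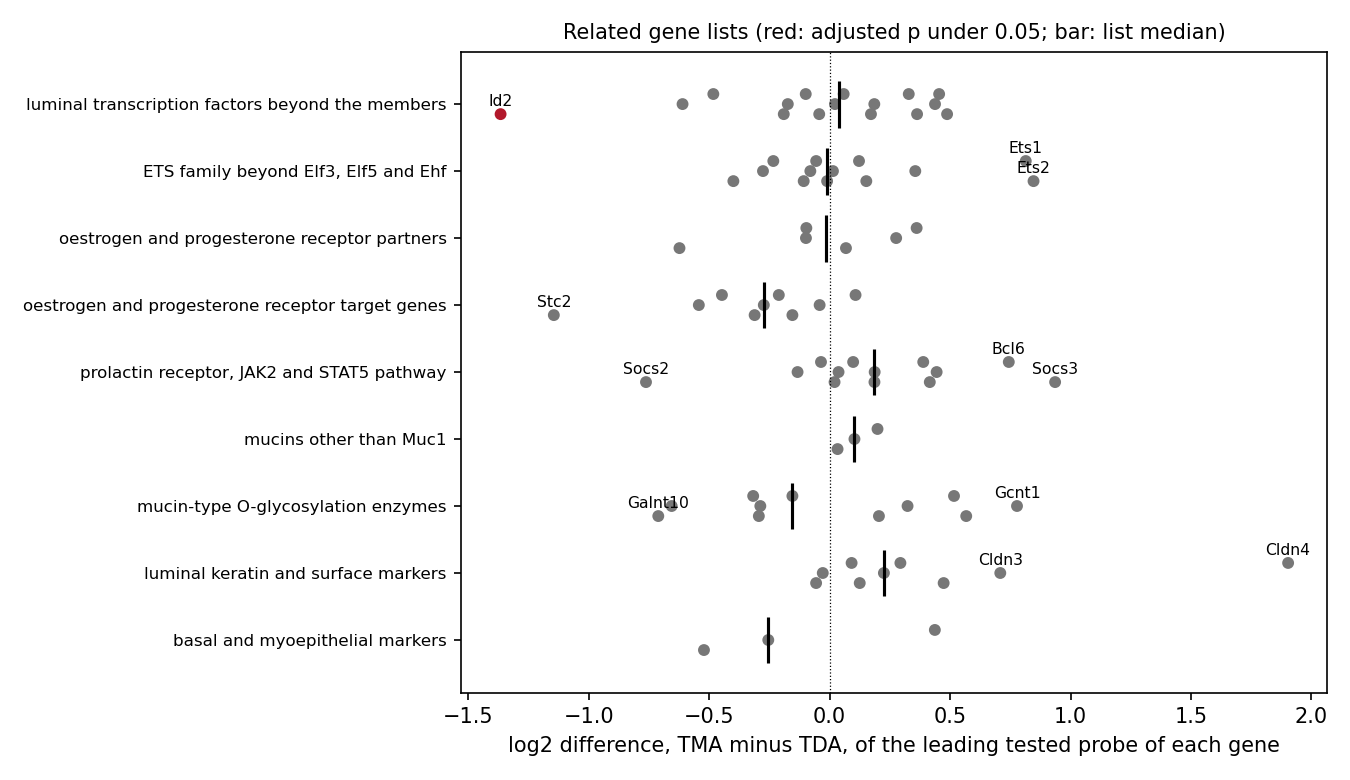
Log2 difference, TMA minus TDA (horizontal axis), of the leading tested probe of each gene in 9 related lists, 1 point per gene, with the list median as a vertical bar and genes beyond 0.7 in size named. The only call, in red, is Id2 at -1.37, and Cldn4 at 1.90 is the largest difference that did not pass.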

How the data were processed

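Trizol extraction and standard Illumina labelling were used, per the labels' protocols. The first table deposited by the authors holds non-normalized signal intensity, with lowest values of 147.5 to 174.5 per array, so no background subtraction is apparent. The second holds log2 values that the authors deposited after normalization, whose method is not given in the sources used here. Here, intensities were corrected by normexp (offset 50), taken to log2 and normalized by quantiles in limma 3.58.1 (R 4.3.3), so differences of dim probes are understated. Probes were named from the platform annotation (23846 of 25697 with 1 symbol). The 12848 probes with a mean above the overall median of 7.01 entered lmFit and eBayes (two-sided), and p-values were adjusted over all of them by Benjamini-Hochberg, with 0.05 as the threshold. The median standard error was 0.221, and the number of arrays limits the precision.

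The members, lists and naming rule were chosen with earlier results of these data known. All member probes were described, a gene was led by its probe with the highest mean, and each list was described by up to 3 called members with the largest differences or, with none, by the 2 of smallest p. For Muc1 the 5 genes of closest pattern were named. On simulated data for this comparison over 12848 probes, log2 changes of 1, 1.5, 2 and 3 were recovered for 21, 36, 42 and 47 of 50 probes each, with 6 false calls. The simulated noise was independent between probes and held no array-wide shifts, so these counts need not hold for the real arrays. Motifs were searched on both strands of RefSeq windows. The alternatives were other background, offset, scaling, filter, variance and weighting choices, the authors' table, each array left out, the replicate block and 1 probe per gene. Figures used matplotlib 3.10.9.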

Additional observations from a re-analysis of the deposited data

How the results depend on the processing

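The count of member probes past the threshold was 1 and depended on the setting. It was 0 without background correction, with an offset of 16, with median scaling, in the authors' log2 table, with the stricter filter and with the unmoderated test, and 6 with array quality weights. With 1 array left out it ranged from 0 to 1. It was 1 again, Muc1 ILMN_1250138 each time, with cyclic loess, no filter, the trend and robust prior and 1 probe per gene, and without TDA2 or TDA3. The difference of that probe ranged from 1.09 to 1.94 over 18 alternatives, with adjusted p from 0.00385 to 0.337, and 10 of them lost the call. The small difference of Gata3 reversed, to -0.21 without TMA2 and -0.11 with array quality weights, and ranged from -0.21 to 0.39 with 1 array left out. The cause was not tested. No other tested member probe changed direction in the alternatives run. Array quality weights called the 4 Muc1 probes, Elf5 ILMN_2938440 and Stat5a ILMN_2976191, but also 14.8% of all tested probes, against 3.01%. The titles number the replicates 1 to 3 in both groups without saying that a number marks a shared culture. The numbers were therefore not taken to pair the arrays. Deviations of same-numbered arrays correlated at 0.126, 0.0133 and 0.0269. Differently numbered arrays were not compared, so these values cannot decide whether the numbers pair arrays. With the replicate block 4 member probes passed, those of Muc1, with 4.03% of all tested probes. Over all tested probes 387 passed, 0 with the unmoderated test and 1906 with array quality weights. The number was 3, 21, 8 and 112 without TMA3, TMA2, TDA1 and TDA3, and 682 and 658 without TMA1 and TDA2. The list medians near 0 changed sign among the alternatives, from -0.068 to 0.12 for ETS genes, -0.20 to 0.14 for steroid receptor partners, -0.0053 to 0.13 for other luminal factors and -0.028 to 0.20 for other mucins. Without detection p-values, Ehf, Esr1 and Pgr could not be told from background.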
